A study of Mus musculus with 18 samples.

Results

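The prostate of wild-type (WT) male mice was compared between 10 and 30 weeks of age by RNA sequencing. The comparison uses 6 of the 18 libraries of the series, chosen by their genotype and age labels, with 3 libraries at 10 weeks and 3 at 30 weeks. All 6 carry the genotype ELAC2+/+ and the strain name C56NL/6N, no treatment is given, and the RNA came from dissected ventral and lateral lobes. The same mice were the controls for a knockout of Elac2 (KO), in which a Cre driven by the probasin promoter removes exon 8 in prostate epithelium, and for mice that carry the A537T variant in every tissue (A537T). The sources used here do not say whether a WT mouse carried a floxed allele or Cre, and none of the labels of these libraries names TRAMP, the tumour transgene that other mice of the study carried. The deposited columns show the group of a library but not its replicate number, so the libraries keep their column names: 10AF, 11AF and 12AF at 10 weeks, and 1AF, 2AF and 3AF at 30 weeks. The study's methods speak of 3 animals of each line, and the labels give no animal number, so p-values measure only the spread between these samples. A difference in the day of dissection or sequencing cannot be told apart from age.

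The mouse prostate is a branched gland. Luminal cells line its ducts and secrete proteins into the seminal fluid under the control of the androgen receptor, basal cells lie beneath them on a basement membrane, and smooth muscle, fibroblasts, vessels and nerves form the stroma. The gland grows by ductal branching and cell division around puberty and afterwards works mainly as a secretory organ. Secreted proteins fold in the endoplasmic reticulum (ER) with the help of chaperones and disulfide isomerases and receive their sugars in the ER and Golgi.

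The libraries held 8121433 to 11039356 reads. Luminal markers were present in all 6: Krt18, a keratin of simple epithelia, was at 2172 to 3195 normalized counts (reads divided by a size factor per library), Hoxb13, a transcription factor of the prostate, at 911 to 3400, and Pbsn, the probasin gene, at 3238 to 26795. The basal marker Krt5 was at 174 to 353. Elac2 itself was at 134, 153 and 180 normalized counts in the 10-week libraries and at 150, 152 and 195 in the 30-week libraries, which overlapped (log2 difference 0.09 ± 0.19 SE, limma adjusted p = 0.83).

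The 10-week libraries also held many reads of genes that mark tissues other than prostate. The reads of 41 genes of skeletal muscle fibres made up 4.21% of all reads in 10AF, 7.04% in 11AF and 13.6% in 12AF, against 0.0191 to 0.0804% at 30 weeks. The reads of 10 genes of seminal vesicle secretion took 4.64% in 10AF and 1.77% in 11AF, 0.000837% in 12AF and at most 0.000380% at 30 weeks. The groups did not overlap in either share, and the exact permutation test gave a 2-sided p of 0.1 for each, the smallest that 3 against 3 libraries can give. The libraries of each age also differed among themselves. Tgm4 and 9530053A07Rik, secretory genes used here as a sign of the anterior and dorsal lobes, took 5.27% of the reads in 10AF, 0.304% in 11AF and 0.000650% in 12AF, and 5.93% in 2AF, 4.33% in 3AF and 0.00111% in 1AF. The ages overlapped in this share (exact permutation p = 0.6, n = 3 and 3).

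**Figure D1:**
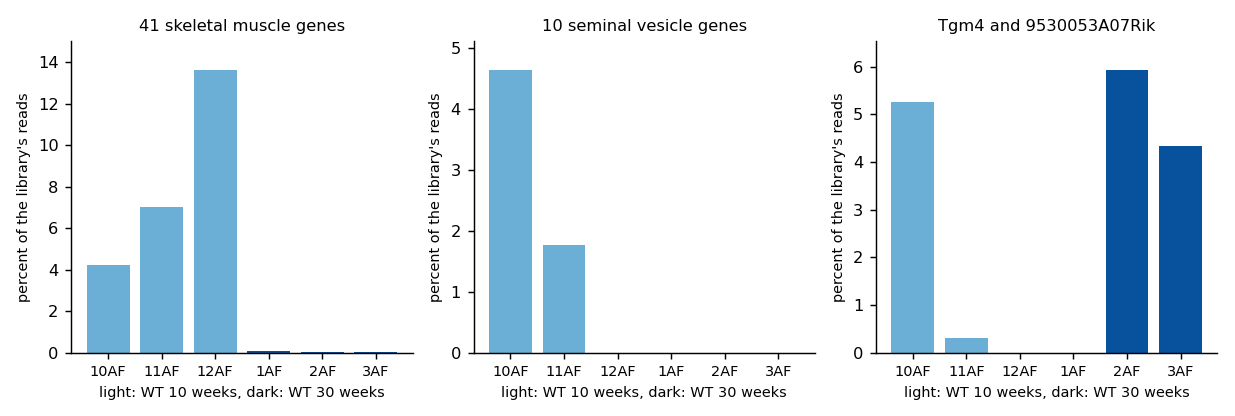
Percent of each WT library's reads that belong to 41 skeletal muscle genes (left), 10 seminal vesicle genes (middle) and the pair Tgm4 and 9530053A07Rik (right), 1 bar per library with light bars at 10 weeks and dark bars at 30 weeks. Muscle reads reach 4.21 to 13.6% at 10 weeks and at most 0.0804% at 30 weeks, seminal vesicle reads are high in 10AF and 11AF, and the pair is near 0 in 1AF and 12AF.

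Of 14996 genes with a mean of at least 10 normalized counts, 210 were higher at 30 weeks (1.4% of the genes tested) and 715 were lower (4.77%), together 6.17%, by limma with an adjusted p under 0.05. edgeR on the recovered reads gave 173 higher and 706 lower. Differences below are log2 values of 30 over 10 weeks ± SE from limma. The median over all genes was 0.00, and the smallest adjusted p was 0.00041. No called gene had overlapping groups, while over all genes 14.1% were higher and 15.8% lower without overlap. Muscle reads and age changed together. Among the lower genes, 364 of 715 rose with the muscle share within the 10-week libraries, with 12AF above 11AF above 10AF and at least 2-fold between the ends. This order is called the muscle order below. It was found in 12 of the 210 higher genes and in 8.31% of all genes. With the muscle share as a covariate in the 6 libraries, 17 genes were higher and 136 lower, which include 14 of the 210 and 74 of the 715. With muscle and seminal vesicle shares as covariates in all 18 libraries, 9 were higher and 5 lower. Without 1AF and 12AF, the 2 libraries with almost no Tgm4, 36 genes were higher and 400 lower. Leaving out a single library also moved the counts, to 37 higher and 389 lower without 1AF, 70 and 472 without 2AF, 26 and 309 without 3AF, 289 and 865 without 10AF, 84 and 334 without 11AF, and 106 and 530 without 12AF.

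The largest rises belonged to secretoglobins. The Scgb1b and Scgb2b genes encode small secreted proteins, the alpha and the beta or gamma subunits of androgen-binding protein, which pair through disulfide bonds and are best known from mouse saliva, tears and glands. The deposited table holds 64 members, 31 named Scgb1b and 33 named Scgb2b, of which 29 are annotated as coding and 35 as pseudogenes. All lie in 2.84 Mb of chromosome 7 (GRCm38, chr7:31255891-34100837). Of the Scgb1b genes, 28 of 31 are on the plus strand, and of the Scgb2b genes 31 of 33 are on the minus strand, so that the numbered partners mostly stand head to head, as Scgb1b20 and Scgb2b20 do at a distance of 6911 bases.

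The upstream sequences of the most abundant members are shown because these genes rose together and their windows are alike. Each runs from 250 bases before to 50 bases after the start of the gene in RefSeq (GRCm38.p6), on the gene's own strand. Capitals mark TATAAA and AGAACA, a hexamer of the kind the androgen receptor binds, read on either strand (TTTATA and TGTTCT), and the marks of overlapping matches are joined.
Scgb2b17 (chr7:33056503-33056802, minus): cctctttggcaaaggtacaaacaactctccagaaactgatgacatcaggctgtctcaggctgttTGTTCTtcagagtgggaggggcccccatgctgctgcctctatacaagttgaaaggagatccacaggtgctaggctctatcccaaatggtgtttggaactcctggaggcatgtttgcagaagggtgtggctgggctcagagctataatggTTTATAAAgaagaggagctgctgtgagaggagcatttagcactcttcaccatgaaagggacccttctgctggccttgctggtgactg
Scgb2b20 (chr7:33366270-33366569, minus): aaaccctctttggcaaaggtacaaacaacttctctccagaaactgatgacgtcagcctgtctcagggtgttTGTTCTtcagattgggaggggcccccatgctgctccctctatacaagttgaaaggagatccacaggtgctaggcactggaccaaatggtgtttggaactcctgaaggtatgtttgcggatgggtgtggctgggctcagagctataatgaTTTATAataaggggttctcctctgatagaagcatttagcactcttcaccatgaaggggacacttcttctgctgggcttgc
Scgb2b18 (chr7:33173812-33174111, minus): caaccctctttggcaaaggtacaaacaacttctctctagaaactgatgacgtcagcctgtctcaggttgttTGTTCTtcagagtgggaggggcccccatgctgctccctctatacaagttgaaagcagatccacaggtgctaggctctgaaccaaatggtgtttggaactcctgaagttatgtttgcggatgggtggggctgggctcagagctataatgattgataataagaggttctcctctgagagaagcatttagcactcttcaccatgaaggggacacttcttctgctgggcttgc
Mug1 (chr6:121838291-121838590, plus): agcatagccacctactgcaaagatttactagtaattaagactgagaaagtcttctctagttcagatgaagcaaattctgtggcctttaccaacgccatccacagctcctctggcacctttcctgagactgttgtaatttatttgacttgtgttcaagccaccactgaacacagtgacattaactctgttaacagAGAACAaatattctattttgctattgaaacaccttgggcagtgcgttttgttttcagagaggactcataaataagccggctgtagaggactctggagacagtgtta

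The window of Scgb2b15 was identical to that of Scgb2b17 over all 300 bases. Scgb2b20 was 96.7% identical to Scgb2b7 and 86.3% to Scgb2b17 over the aligned bases. Scgb2b18 is shown because it is 96% identical to Scgb2b20 and yet gave a mean of 0.331 normalized counts at 30 weeks. Its window and that of Mug1 hold AGAACA but not TATAAA. Scgb2b18 is a single picked example. Of 12 windows of Scgb2b members with too few reads to be tested for age, 9 hold TATAAA, 9 hold AGAACA and 6 hold both. Of 8 windows of tested Scgb2b members, 8 hold TATAAA, 7 hold AGAACA and 7 hold both. Whether either motif bears on the reads of a member was not tested. Over the 29 members with a window in the table, TATAAA was found in 22, AGAACA in 19 and both in 13. Among all 32851 promoters of this length, 13.6% hold TATAAA, 18.97% hold AGAACA and 3.40% hold both. Windows within the family are alike, so the family counts are not independent and their excess over all promoters was not tested. The matches are of letters and not measured binding.

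Of the 64 members 11 passed the filter, 8 Scgb2b and 3 Scgb1b genes, and all 11 were called higher at 30 weeks. They passed through their 30-week values, so this count follows from the filter and is no support beside the 1.4% of all genes. The other 53 stayed below it, and 42 of them had no read in any of the 6 libraries. Scgb2b17 was at 7.38, 50.9 and 0 normalized counts in the 10-week libraries and at 10522, 4013 and 5739 in the 30-week libraries 1AF, 2AF and 3AF. Scgb2b15 was at 0, 0 and 36.5 at 10 weeks and at 8460, 3382 and 4911 at 30 weeks. Scgb2b20 was at 0, 1.78 and 1.11 at 10 weeks and at 6688, 1473 and 3003 at 30 weeks. In each case all 30-week libraries stood far above all 10-week libraries, with 1AF highest and 2AF lowest of the 30-week libraries.

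Scgb2b7 reached 3903, 924 and 1850 at 30 weeks from at most 4.43, and Scgb1b20, the most abundant alpha subunit gene, reached 3165, 519 and 1374 from at most 1.05. Scgb2b27, Scgb2b12 and Scgb2b24 had means of 407, 270 and 104 at 30 weeks. Scgb2b4-ps, a pseudogene by name, and Scgb1b7 had no read at 10 weeks, and their 30-week means were at least 44.1-fold and at least 23.9-fold higher than 3 reads over the 10-week group. Scgb1b27 was the least abundant called member, at 20.2, 24.1 and 20.9 against 0, 0.892 and 1.11. The 4 most abundant members, which were Scgb2b17, Scgb2b15, Scgb2b20 and Scgb2b7, made up 87.6% of the 30-week sum over the 64 members. Of the 30 numbered pairs, the Scgb2b gene reached a mean of 10 at 30 weeks in 9 and the Scgb1b gene in 3, which are the pairs numbered 7, 20 and 27.

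How reads were divided among single members is uncertain, since the counting estimates that division where transcripts are alike. The transcripts of Scgb2b17 and Scgb2b15 are identical at 96.8% of aligned positions, those of Scgb2b20 and Scgb2b7 at 98.1%, and those of Scgb1b20 and Scgb1b7 at 97.9%. All 420 bases of the Scgb2b17 transcript were matched within the 434 of Scgb2b15, so the separate values of these genes can hardly be told apart. The sum over the family does not depend on that division: 9, 69 and 45 reads in 10AF, 11AF and 12AF stood against 42250, 9510 and 17787 reads in 1AF, 2AF and 3AF. Scaled over all 18 libraries, the means were 38.9 and 20134 normalized counts, a ratio of 517. With the muscle share as a covariate 6 of the 11 members were still higher, with both shares in all 18 libraries 7 of 11, and without 1AF and 12AF 9 of the 10 that then passed the filter.

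**Figure D2:**
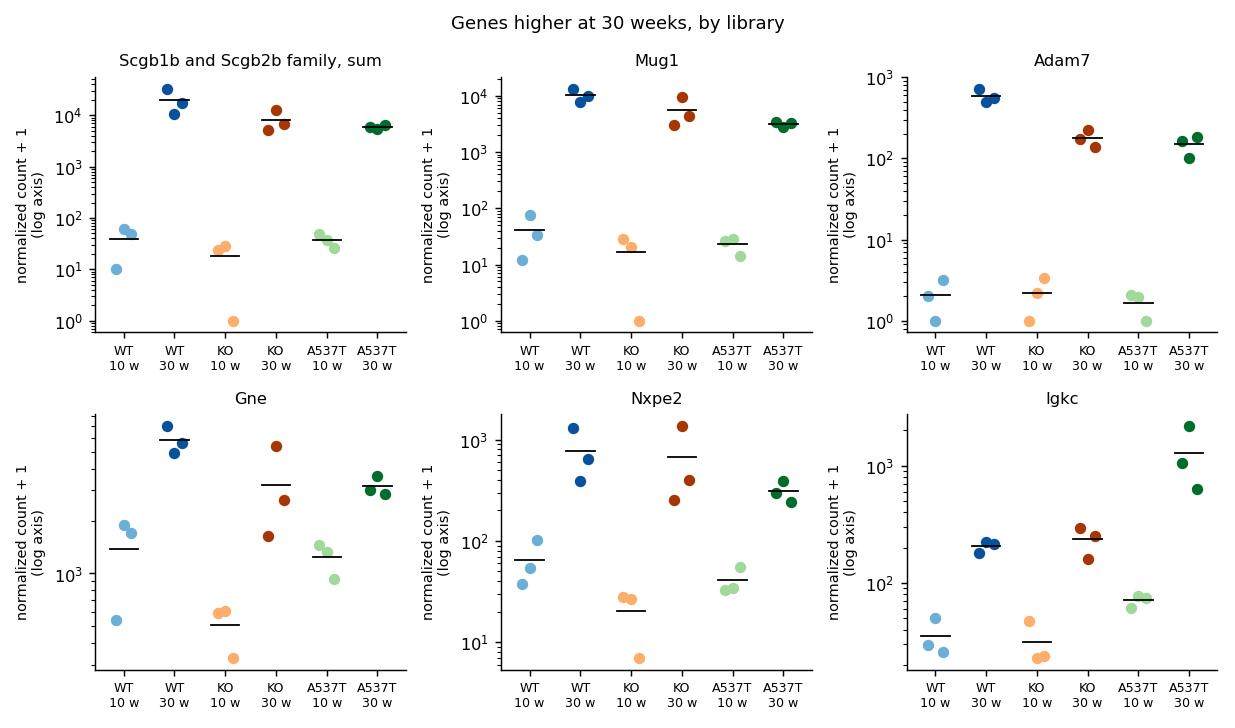
Normalized count plus 1 on a log axis for the Scgb1b and Scgb2b sum, Mug1, Adam7, Gne, Nxpe2 and Igkc, with 1 point per library in the 6 groups of the series, scaled over all 18 libraries, and a bar at the mean of 3 libraries. The family sum lies between 9.17 and 59.4 in WT at 10 weeks and between 10530 and 32842 at 30 weeks, and the KO and A537T libraries at 30 weeks also stand above their own at 10 weeks in all 6 plots.

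Mug1 and Adam7 behaved like the secretoglobins. Mug1 (chr6:121838541-121889057), which encodes murinoglobulin, a secreted inhibitor of proteases, was at 11.6, 77.6 and 33.2 normalized counts at 10 weeks and at 13870, 7930 and 10121 at 30 weeks. Its log2 difference was 8.32 ± 0.60 (SE, adjusted p = 0.0015). Reads of Mug1 could be shared with other members of its family. Adam7 (chr14:68497336-68533741), a member of the disintegrin and metalloprotease family known from the epididymis, was at 1.05, 0 and 2.21 at 10 weeks and at 749, 517 and 581 at 30 weeks (log2 difference 8.34 ± 0.45, adjusted p = 0.00090). At 30 weeks, 8 epididymal secretory genes together took 0.000698 to 0.00140% of reads, and Crisp1, one of the defining genes, had no read in any of the 30-week libraries. The reads of those genes were highest in 10AF, at 0.0697%.

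Nxpe2 and Nxpe4, which encode related secreted or membrane proteins, rose by 3.55 ± 0.50 and 3.21 ± 0.50 on the log2 scale. Nxpe4 was at 91.8, 239 and 294 at 10 weeks and at 2849, 1078 and 1707 at 30 weeks. The 2 genes overlap on opposite strands of chromosome 9 (chr9:48162023-48400025 and chr9:48318006-48353454), and the counting is stated to have used the strand. Dcaf12l1 was at 137, 777 and 525 at 10 weeks and at 5065, 2883 and 3641 at 30 weeks (3.29 ± 0.60). Gm12873, annotated as an unprocessed pseudogene, was at 0, 2.68 and 4.43 and then at 363, 83.6 and 176 (6.02 ± 0.77). Whether its reads were shared with related genes was not tested. All 4 genes were called higher (adjusted p from 0.0063 to 0.023), and Nxpe2, Nxpe4 and Gm12873 were in the muscle order among the 10-week libraries. With the muscle share as a covariate Mug1, Adam7, Nxpe2 and Gm12873 were still called higher, while Nxpe4 and Dcaf12l1 had a limma adjusted p of 0.054 and 0.093. Adam7 and Gm12873 passed the filter only through their 30-week values.

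Genes that make sialic acid and build mucin-type sugar chains were looked at after Gne and Muc19 were seen among the higher genes, so their list was chosen after values were seen. Of 19 tested genes in it, 6 were higher and 1 was lower (against 1.4% and 4.77% of all genes), with a median log2 difference of 0.42. Gne (chr4:44034075-44084177), whose enzyme starts sialic acid synthesis, rose most: 562, 1973 and 1770 at 10 weeks, and 7281, 5048 and 5807 at 30 weeks, a log2 difference of 2.25 ± 0.46 (adjusted p = 0.034). Mgat5, which branches N-linked chains, rose by 1.20 ± 0.22, and Galnt18, of the family that starts O-linked chains, by 1.20 ± 0.25. Slc35a3, a Golgi carrier of UDP-N-acetylglucosamine, C1galt1, which extends mucin-type chains, and B4galt1, a galactosyltransferase, rose by 0.74, 0.65 and 0.66. St3gal1, which caps O-linked chains with sialic acid, fell by 1.31 ± 0.25 on the log2 scale.

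The secreted mucin gene Muc19 was at 210, 532 and 206 at 10 weeks and at 1796, 1140 and 1333 at 30 weeks (2.29 ± 0.38, adjusted p = 0.016). Smgc, known from the salivary gland, rose by 2.62 ± 0.41, but it passed the filter only through its 30-week values. Scaled over all 18 libraries, Smgc was at 5.09, 6.88 and 13.9 at 10 weeks and at 54.4, 63.1 and 45.0 at 30 weeks. Both genes lie on the plus strand of chromosome 15 and overlap (chr15:91838326-91934555 for Muc19 and chr15:91838265-91861438 for Smgc), so the division of reads between them is uncertain. Of the glycosylation list no gene was called higher without 1AF, 2AF or 3AF, 1 was without 11AF and 3 were without 12AF. Without 1AF and 12AF together none was called, and the median was 0.52. Under either covariate fit none was called, with medians of 0.65 and 0.41, and with the muscle share Muc19 had an adjusted p of 0.20.

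The ER chaperone list holds 19 genes, all tested. Of these, 4 were higher (against 1.4% of all genes), none was lower, and 18 had a positive log2 difference, with a median of 0.49. Pdia6, a protein disulfide isomerase, was at 3817, 4492 and 2955 at 10 weeks and at 6343, 6762 and 6803 at 30 weeks (0.84 ± 0.17, adjusted p = 0.036). Pdia3, the isomerase that works with the lectin chaperones, rose by 0.70 ± 0.14, Calr (calreticulin), one of those lectins, by 0.67 ± 0.14, and Sdf2l1, a cofactor of the chaperone BiP, by 0.66 ± 0.14. The remaining members were not called, among them Hspa5, which encodes BiP, at 0.28 ± 0.14. Under edgeR 1 of the 19 was called, and with the same total per library, with either covariate fit or without 1AF and 12AF none was, with medians from 0.27 to 0.58. Leaving out 1AF, 2AF, 3AF or 12AF left none, leaving out 11AF left 1, and without 10AF 6 were called.

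Among other secretory and membrane genes named after their values were seen, Prlr, the prolactin receptor, rose from 3051, 3120 and 1783 to 5951, 5866 and 5975 (1.21 ± 0.22, adjusted p = 0.025). Ace, which encodes angiotensin-converting enzyme, rose by 0.91 ± 0.19. Slc27a2, a fatty acid transport protein and acyl-CoA synthetase, rose from 9.49, 16.1 and 13.3 to 139, 72.1 and 108 (2.92 ± 0.34), and Capn13, a calpain protease, from 20.0, 13.4 and 12.2 to 166, 115 and 128 (3.10 ± 0.28). Of 19 genes of the androgen receptor and its targets, 1 was higher and 1 lower (against 1.4% and 4.77% of all genes), so the list as a whole showed little. Acpp, prostatic acid phosphatase, was at 49.6, 50.9 and 43.2 at 10 weeks and at 235, 148 and 180 at 30 weeks (1.93 ± 0.22, adjusted p = 0.0040). Pmepa1, a membrane protein and inhibitor of TGF-beta signalling, was the lower one, at 102, 99.03 and 104 and then at 29.9, 52.7 and 46.7. Prlr, Ace, Slc27a2, Capn13 and Acpp were not called with the muscle share as a covariate, with limma adjusted p of 0.25, 0.37, 0.079, 0.065 and 0.10.

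Of 9 genes listed for luminal epithelium, 2 were higher (against 1.4% of all genes). Cdh1, E-cadherin, was at 1569, 1984 and 1577 at 10 weeks and at 3425, 2919 and 3061 at 30 weeks (0.88 ± 0.14, adjusted p = 0.015), and Epcam, an epithelial adhesion molecule, rose by 0.91 ± 0.21. Together the 9 luminal genes took 0.215% of reads at 30 weeks and 0.152% at 10 weeks, and 8 basal genes took 0.0616% and 0.0853%, with no overlap in either (exact permutation p = 0.1). None of the 7 basal genes tested was called. In bulk tissue, more cells of a type and more RNA per cell cannot be told apart. No luminal gene was called without 1AF, without 3AF or without both 1AF and 12AF, and 1 was without 2AF, 11AF or 12AF. Under either covariate fit none was, with medians of 0.51 and 0.58 against 0.26.

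Immunoglobulin genes were higher at 30 weeks. Of 20 genes of plasma and B cells 6 passed the filter, and 3 of these were higher (against 1.4% of all genes). All 6 were higher without overlap, against 14.1% of all genes. Genes low at 10 weeks can pass the filter through their 30-week values, so this count of 6 is no support beside that share. Igkc, the kappa light chain, was at 29.5, 50.9 and 25.5 at 10 weeks and at 187, 229 and 223 at 30 weeks (2.62 ± 0.28, adjusted p = 0.0034). Ighm, the heavy chain of IgM, rose by 1.65 ± 0.27, and Jchain, which joins the units of IgM and IgA, by 2.00 ± 0.42. The 20 genes took 0.0125 to 0.0184% of reads at 30 weeks against 0.0041 to 0.0073% at 10 weeks. Derl3 is 1 of the 20 and had the smallest log2 difference of the 6 tested, 0.61. It was at 375, 351 and 220 at 10 weeks and at 400, 544 and 471 at 30 weeks (scaled over all 18 libraries). The list's sum at 10 weeks was 615, 668 and 462 (scaled over 6 libraries), so Derl3 was a large part of it. The cells that gave the Derl3 reads were not tested. Without 3AF 1 gene of the list was called, without 1AF and 12AF 2, and with either covariate fit none, with medians of 1.66 and 0.93. Genes of T and NK cells were mostly below the filter (2 of 23 tested, none called), and none of 26 macrophage genes, 19 MHC class I genes or 7 MHC class II genes was called.

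The largest decreases were those of muscle. All 41 skeletal muscle genes were lower at 30 weeks and all followed the muscle order, with a median log2 difference of -7.82. Ttn, the giant spring of the sarcomere, was at 174075, 289234 and 683288 normalized counts at 10 weeks and at 2726, 307 and 885 at 30 weeks. Pvalb, a calcium buffer of fast fibres, had no read at 30 weeks and was at least 9114-fold lower than its 10-week mean of 8767, counted against 3 reads over the group. Of the 15 largest decreases outside that list, 14 followed the muscle order, among them Mylk2, a myosin kinase, and Ankrd2, a muscle stretch response gene that was at least 545-fold lower. H19 and Slc38a4, both imprinted, were in that order too, with log2 differences of -5.98 and -5.49. For these genes the part that muscle RNA had in the difference was not tested beyond the values above.

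Ren1 was the exception among the 15. The gene encodes renin, a protease of the kidney that mouse glands also express (chr1:133350510-133360325). It was at 398, 110 and 204 normalized counts in 10AF, 11AF and 12AF and had no read in any 30-week WT library, at least 246-fold lower. Its order among the 10-week libraries was neither that of muscle nor that of seminal vesicle RNA. Outside WT it was uneven: scaled over all 18 libraries it was at 3122, 0 and 2409 in KO at 30 weeks and at 0 to 0.964 in A537T at 30 weeks. The seminal vesicle share was 8.53, 8.02e-05 and 6.32% in those KO libraries and 7.24, 9.13e-05 and 9.18% in those of A537T. The tissue that gave the Ren1 reads was not tested.

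**Figure D3:**
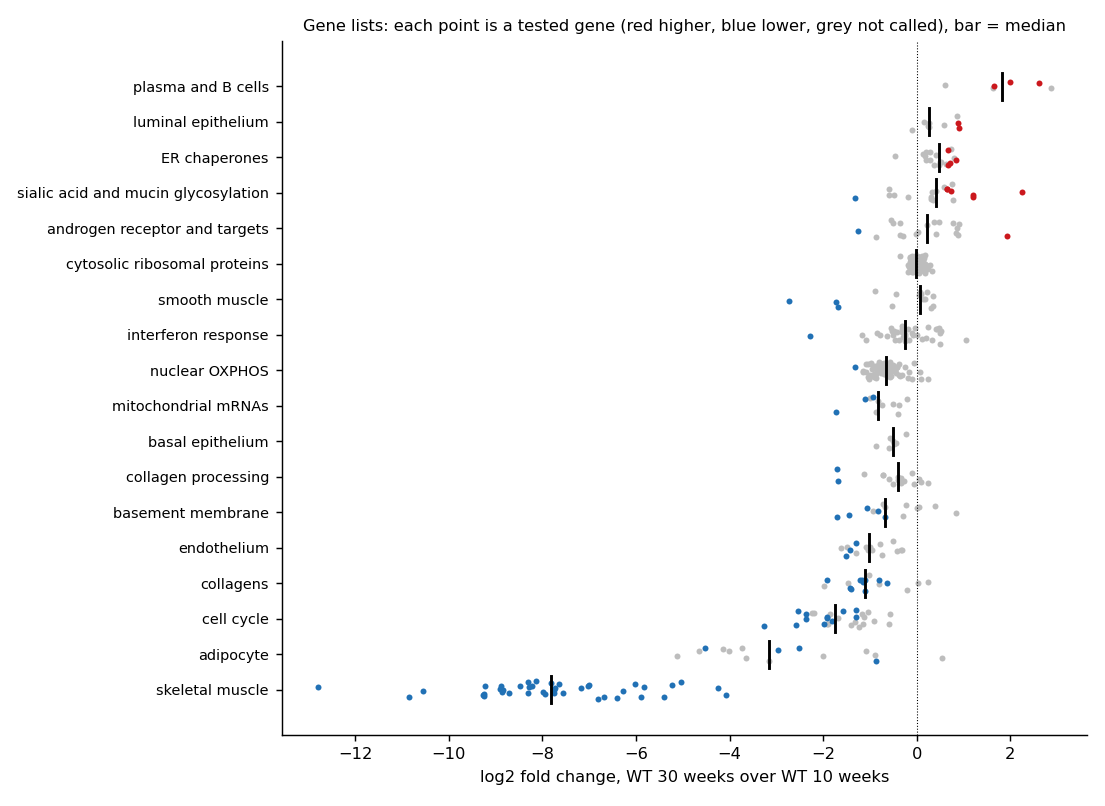
Log2 difference of WT prostate at 30 weeks over 10 weeks for each tested gene of 18 lists, with red points for genes called higher, blue for genes called lower, grey for genes not called and a black bar at the list's median. The bars run from -7.82 for skeletal muscle and -3.16 for adipocyte genes to 1.82 for plasma and B cell genes, and cytosolic ribosomal protein genes sit around -0.01.

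Collagen genes were lower at 30 weeks and, Col6a3 excepted, did not follow the muscle order. Of 17 tested, 10 were lower and none was higher (4.77% of all genes were lower), with a median log2 difference of -1.11. Without overlap 14 were lower, against 15.8% of all genes. Col3a1, a fibrillar collagen of loose connective tissue, was at 4938, 4076 and 4656 at 10 weeks and at 1121, 2203 and 1925 at 30 weeks (-1.43 ± 0.25, adjusted p = 0.021). Col1a2, a chain of type I collagen, was at 3045, 2266 and 2265 and then at 958, 1310 and 1272 (-1.10 ± 0.18), and Col6a1, a chain of the microfibrillar type VI collagen, fell by 1.14 ± 0.13 on the log2 scale. Col14a1, which binds collagen fibrils, fell by 1.41 ± 0.20. The 17 genes took 0.281% of reads at 10 weeks and 0.125% at 30 weeks.

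Some enzymes that cross-link collagen and some genes of the basement membrane were lower too. Loxl1 and Loxl2, lysyl oxidases, had log2 differences of -1.70 ± 0.29 and -1.67 ± 0.25. They were the 2 calls among 17 genes of collagen processing, where 4.77% of all genes were lower. Fbn1, the backbone of microfibrils, was at 1534, 1151 and 1830 at 10 weeks and at 281, 607 and 532 at 30 weeks (-1.72 ± 0.31). In a basement membrane list chosen after values were seen, 5 of 14 genes were lower (4.77% of all genes were). In that list 3 genes had a positive log2 difference and none was called higher, with a median of -0.68. Nid1, which links laminin to collagen IV, was at 1336, 823 and 1031 and then at 274, 466 and 438 (-1.44 ± 0.26, adjusted p = 0.021). The log2 difference was -1.69 ± 0.30 for Nid2, -1.06 ± 0.15 for Lamb1 and -0.68 ± 0.13 for Lamc1, both laminin chains, and -0.83 ± 0.17 for Hspg2, the heparan sulfate proteoglycan perlecan. Mmp2, which degrades collagen IV, fell by 1.31 ± 0.15. No collagen and no basement membrane gene was called with the muscle share as a covariate, with medians of -1.12 and -0.90. With both shares in 18 libraries the collagen median was -1.33 and 1 was called, and the basement membrane median was -0.78 with none called, and without 1AF and 12AF 6 collagens and no basement membrane gene were called. Without 1AF, 3AF and 11AF in turn, 6, 2 and 4 collagens and 2, 0 and 2 basement membrane genes were called.

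Genes of cell division were lower at 30 weeks. Of 28 tested, 12 were lower (4.77% of all genes were) and all 28 had a negative log2 difference, with a median of -1.75. Without overlap 26 were lower, against 15.8% of all genes. Mki67, the proliferation antigen Ki-67, was at 388, 520 and 594 at 10 weeks and at 88.8, 156 and 161 at 30 weeks (-1.91 ± 0.27, adjusted p = 0.0095). The log2 difference was -1.91 ± 0.23 for Cenpf, a kinetochore protein, -2.36 ± 0.39 for Tpx2, which builds the spindle, and -1.30 ± 0.25 for Kif11, a spindle motor. In the muscle order were 5 of the 28 genes, 2 of them called. None of the 23 tested genes of DNA replication was called, and their median was -0.40. Outside that list Ccnd2, a cyclin of the G1 phase, fell by 0.88 ± 0.17 and Cdkn2c, an inhibitor of the cyclin D kinases, fell by 1.45 ± 0.28. Without 1AF and 12AF 2 cell division genes were called, and under either covariate fit none was, with medians of -1.32 without that pair, -1.35 with the muscle share and -0.83 with both shares. Without 1AF or 2AF 4 were called, without 3AF 3, without 11AF 1, without 12AF 2 and with quantile normalization 4.

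**Figure D4:**
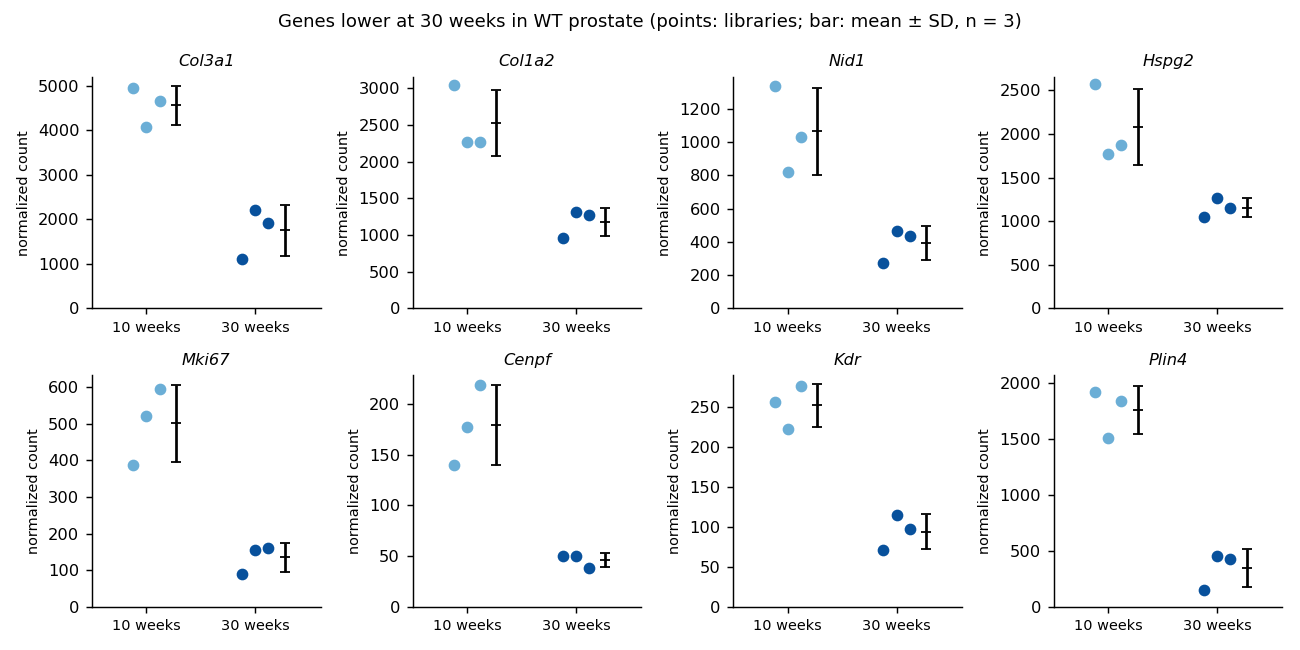
Normalized counts of Col3a1, Col1a2, Nid1, Hspg2, Mki67, Cenpf, Kdr and Plin4 in the WT libraries, with 1 point per library and a bar for the mean ± SD of 3 libraries at each age. In all 8 genes each 10-week library lies above each 30-week library, as in Mki67 with 388 to 594 against 88.8 to 161.

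Some genes of fat cells and vessels were lower. Of 15 adipocyte genes 4 were lower (4.77% of all genes were) and 13 were lower without overlap (15.8% of all genes were), with a median of -3.16. Plin4, which coats lipid droplets, was at 1925, 1513 and 1844 at 10 weeks and at 149, 452 and 431 at 30 weeks (-2.50 ± 0.41, adjusted p = 0.015), and Fabp4, the fatty acid binding protein of fat cells, fell by 2.96 ± 0.56. Library 1AF was the lowest for both. The adipocyte genes took 0.0592 to 0.0968% of reads at 10 weeks and 0.0066 to 0.0203% at 30 weeks, and without 1AF 9 of them were called, without 10AF 2, and without 3AF, 11AF or 12AF 1. Of 16 endothelial genes 3 were lower and 11 were lower without overlap (against 4.77% and 15.8% of all genes), with a median of -1.02. Kdr, a receptor of vascular growth factors, fell by 1.43 ± 0.21, and Cdh5, the cadherin of endothelial junctions, fell by 1.30 ± 0.27. Flt1, another such receptor, was at 209, 216 and 194 and then at 46.0, 90.5 and 89.4. Without 3AF no endothelial gene was called, without 11AF or 12AF 1, without 1AF or 10AF 2 and without 2AF 5. With the muscle share as a covariate, and with both shares, no adipocyte gene was called (medians of -4.21 and -2.61) and no endothelial gene (-1.19 and -0.80).

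Few genes of energy metabolism were called. Of 74 nuclear genes of oxidative phosphorylation 1 was lower (4.77% of all genes were), the median was -0.66, and 50 of the 74 were in the muscle order. With the muscle share as a covariate their median was 0.32, and without 10AF 29 of them were lower. Of 11 mitochondrial mRNAs tested 3 were in the muscle order, and 3 were lower, with a median of -0.82: mt-Nd1 was at 15143, 17550 and 22939 at 10 weeks and at 8378, 8579 and 8414 at 30 weeks (-1.11 ± 0.19), mt-Nd2, which was highest in 10AF, the 10-week library with the least muscle, fell by 0.94 ± 0.19, and mt-Nd3, in the muscle order, fell by 1.73 ± 0.39. Their median was -0.33 with the muscle share as a covariate, none was called without 1AF, 2AF, 3AF or 11AF, and 8 were without 10AF. None of 78 cytosolic ribosomal protein genes was called, and their median was -0.01.

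Other lists held few calls. Bhlhe40 and Bhlhe41, repressors of the circadian clock, had log2 differences of -2.04 ± 0.32 and -1.43 ± 0.23, the 2 calls among 18 clock genes. Ifi27l2a was the 1 call among 38 interferon response genes and fell by 2.28 ± 0.40, where 4.77% of all genes were lower. Of 17 complement genes 2 were lower. C3, the central complement component, fell by 1.33 ± 0.28, and Cd55, which protects cells from complement, fell by 1.22 ± 0.22. Smox, which oxidises spermine, fell by 2.92 ± 0.35 and was in the muscle order. Of 15 smooth muscle genes Tpm2, Synm and Des were lower. These 3 are also expressed in skeletal muscle, and of them only Tpm2 was in the muscle order. The part of muscle RNA in their difference was not tested further. The list's median was 0.08, but it was -1.36 with the muscle share as a covariate, -0.95 with both shares, -0.98 for 2AF and 3AF against 10AF and 0.73 for 1AF against 12AF, so the direction of the list turned with the libraries and the fit. Its genes took 0.296 to 0.403% of reads at 30 weeks and 0.428 to 0.845% at 10 weeks. Hba-a1, an alpha globin of red cells whose copies are near-identical, fell by 1.54 ± 0.31.

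The age change was set beside that of KO and A537T prostate, which share no library with the WT groups. Fitted on the same 14996 genes, 79 genes were higher in KO (0.527%) and 231 lower (1.54%, together 2.07%), and 203 were higher in A537T (1.35%) and 602 lower (4.01%, together 5.37%). Of the 210 genes higher in WT, 195 had the same sign in KO and 161 in A537T, while over all genes 50.1% and 50.6% were positive. Of these 210, 25 were called higher in KO and 46 in A537T, and 18 in both. Of the 715 lower genes, 24 were called lower in KO and 327 in A537T, and 15 in both. Muscle reads took 0.0715 to 2.20% in the KO libraries at 10 weeks and 1.66 to 4.65% in the A537T libraries, and at most 0.0657% and 0.0620% at 30 weeks.

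The 18 genes called higher at all 3 genotypes were 9 secretoglobins, Mug1, Adam7, Nxpe2, Nxpe4, Dcaf12l1, Acpp, Igkc, Ighm and Jchain. Mug1 rose by 9.20 in KO and 7.19 in A537T on the log2 scale, and Adam7 by 6.45 and 6.54. The family sum of the secretoglobins went from 0 to 27.9 up to 5077 to 12749 in KO and from 25.2 to 47.4 up to 5407 to 6400 in A537T, ratios of the means of 478 and 162. The 15 genes called lower at all 3 were Col1a2, Col3a1, Col4a2, Col5a1, Col5a2 and Col6a2, Hspg2, Nid1, Fbn1 and Loxl2, and Ccnd2, Sox6, Speg, Itpripl2 and Hba-a1. Of these 15, 13 were outside the muscle order, which is not a test for muscle RNA. Speg, 1 of the 13, was at 507, 505 and 846 normalized counts in 10AF, 11AF and 12AF, so highest in the library with the most muscle reads. The log2 difference of Col3a1 was -1.29 in KO and -1.46 in A537T. That of Mki67 was -1.31 in the KO mice, which was called with an adjusted p of 0.0096, and -0.50 in the A537T mice, with an adjusted p of 0.24.

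Whether an age change differed between genotypes was tested as an interaction over all 18 libraries. Between WT and KO no gene passed in limma (smallest adjusted p = 0.076, with 2198 genes at an unadjusted p under 0.05) or in edgeR. Between WT and A537T 11 genes passed (0.0734%), 9 with the difference above 0 in WT against A537T (0.06%) and 2 below (0.0133%), and none passed in edgeR. Of the 9, Creld2, Pdia4, Hyou1, Manf and Pdia3 belong to the ER chaperone list. Creld2, an ER stress gene that binds misfolded proteins, was at 813, 562 and 431 normalized counts (scaled over 18 libraries) in WT at 10 weeks and at 587, 1019 and 901 at 30 weeks, which overlapped. In A537T it was at 1668, 1622 and 1633 and then at 414, 676 and 367, and in KO at 1274, 1777 and 1893 and then at 655, 527 and 619. So the 10-week WT libraries were below those of both mutants. Pdia4, another disulfide isomerase, differed by 1.66 ± 0.28 between WT and A537T (adjusted p = 0.044), and Hyou1, a chaperone of the HSP70 family, by 1.17 ± 0.18.

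Over the 19 ER chaperone genes, the WT age change was above that of KO in 17, with a median difference of 0.69, and above that of A537T in 17, with a median of 1.03. Over all genes the difference was positive in 46.7% and 49.2%, and the medians were -0.03 and -0.01. The median age change of the list was 0.49 in WT, -0.19 in KO and -0.31 in A537T, with 1 gene lower in KO and 5 in A537T. Other reads moved with these groups. In A537T the share of Tgm4 and 9530053A07Rik was 3.71 to 5.603% at 10 weeks and 0.0549 to 0.312% at 30 weeks, and the seminal vesicle share was 0.0397 to 0.200% at 10 weeks and 7.24, 9.13e-05 and 9.18% at 30 weeks. In KO the Tgm4 and 9530053A07Rik share was 3.38 to 5.89% at 10 weeks and 0.000935 to 2.61% at 30 weeks, and the seminal vesicle share was 6.56 to 10.3% and then 8.53, 8.02e-05 and 6.32%. With muscle and seminal vesicle shares as covariates 6 genes of all tested differed between WT and A537T in their age change, and the part of the Tgm4 and 9530053A07Rik share was not tested. The 11 calls between WT and A537T fell to 0 without 3AF, 11AF or 12AF and with the same total per library, were 1 without 2AF and 22 without 1AF, and rose to 109 without 10AF.

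**Figure D5:**
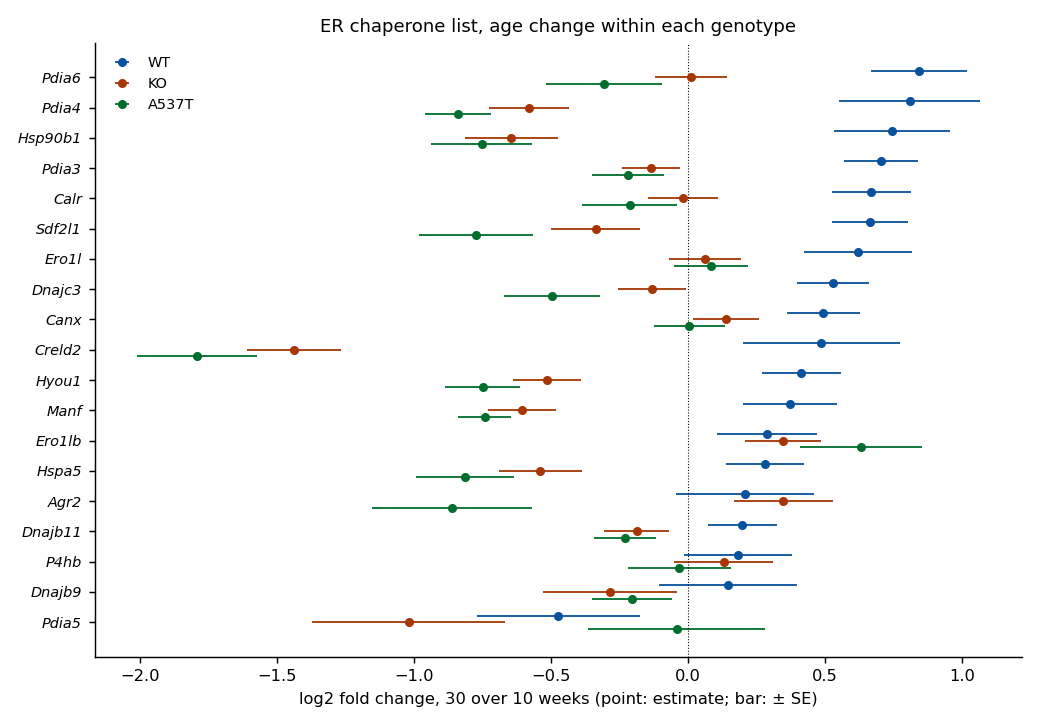
Log2 difference of 30 over 10 weeks for 19 ER chaperone genes fitted within each genotype, as points with bars of ± 1 SE, for WT (blue), KO (brown-red) and A537T (green). In WT 18 of 19 points lie above 0, and Pdia4, Hsp90b1, Pdia3, Calr, Sdf2l1, Dnajc3, Creld2, Hyou1, Manf, Hspa5, Dnajb11 and Dnajb9 lie above 0 in WT and below 0 in both mutants.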

How the data were processed

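RNA from ventral and lateral prostate of WT, KO and A537T mice was sequenced as total RNA with TruSeq libraries on an Illumina NovaSeq. Per the labels and the study's methods, the authors trimmed reads with Trim Galore 0.4.1 and cutadapt 1.18, aligned them with STAR 2.7.3a to GRCm38, estimated counts with Salmon in a stranded mode, summed them per gene with tximport and scaled them with DESeq2 1.26. The deposited values are a normalized signal per gene, that is, counts divided by a size factor for each library, in 4 tables of 55469 genes, 1 per age and mutant. Columns of the authors' own comparisons (fold changes and p-values) were not used.

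Each column's step size gave back the rounded estimates as whole reads (tolerance 0.1 read) in at least 99.99% of values. A WT library stands in the KO and in the A537T table of its age, and the columns found in both were taken as WT. Reads from the KO tables were used. The same library differed between its tables in 53.6 to 64.1% of expressed genes, by a median of 0.017 to 0.027 on the log2 scale. The 6 WT libraries were scaled together by median-of-ratios size factors, which lay between 0.873 and 1.24. Genes with a mean of at least 10 normalized counts entered limma 3.58.1 as log2 of the normalized count plus 1 (R 4.3.3, empirical Bayes with a mean trend, Benjamini-Hochberg adjustment over all genes tested). A gene with an adjusted p under 0.05 is said to be called, to have risen or to have fallen. Fold changes on this scale understate those of low genes. KO and A537T were fitted in their own 6 libraries, and interactions in all 18. edgeR 4.0.16 and DESeq2 1.42.0 on the recovered reads, other scalings, pseudocounts and filters, covariates and leaving out libraries were alternatives. The shares of reads were compared by exact permutation tests over libraries. The scripts were tested on simulated data.

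Gene positions are from the GENCODE annotation of GRCm38, and upstream sequences from RefSeq. The files give versioned gene IDs of which 54450 matched the name table exactly, 657 without the version, 35 by symbol and 327 not at all. The genes named were Elac2, the 2 most abundant and the 2 most significant members of each gene list, and the 15 largest increases and decreases with a mean of at least 100. Others, such as Gne, Prlr, Ace, Capn13, Slc27a2, Krt5, the less abundant secretoglobins, the basement membrane genes and further members of lists, were picked with their values in view. The comparison, its members and the lists were chosen with earlier results of these data known. Some genes that this rule names are not reported here.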

Additional observations from a re-analysis of the deposited data

Results flagged for a closer look

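The age change differed between WT and A537T by the interaction test in limma for 11 genes, with adjusted p from 0.0442 to 0.0492, and in edgeR for none. The difference, as the age change in WT minus that in A537T on the log2 scale, was 2.29 for Creld2, 1.77 for Gm38910, 1.66 for Pdia4, 1.54 for Ace, 1.17 for Hyou1, 1.12 for Manf, 0.93 for Pdia3, 0.89 for Ppt1, 0.88 for Tmem123, -1.53 for Nr1d2 and -2.21 for Plbd1. Within WT alone Gm38910, Ace, Ppt1 and Pdia3 rose and Plbd1 fell with age, while Creld2, Pdia4, Hyou1, Manf, Tmem123 and Nr1d2 were not called. Ppt1 encodes a lysosomal thioesterase, Plbd1 a phospholipase B-like protein and Nr1d2 a nuclear receptor of the circadian clock. In all of the 9 genes with a positive difference the age change in A537T was below 0.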

How the results depend on the processing

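No paired analysis was possible because the columns carry no replicate numbers. Beside 210 genes higher and 715 lower, DESeq2 gave 512 and 1223, one total per library without muscle and seminal vesicle genes gave 120 higher, quantile normalization 339 higher, limma without a mean trend 102 higher, and a minimum mean of 100 gave 467 lower. The muscle share as a covariate gave 17 and 136, and both shares in 18 libraries 9 and 5. Chosen after seeing the data, a spread shared over 18 libraries gave 682 and 1282, and leaving out 1AF and 12AF 36 and 400. Without each library in turn the counts ran from 26 to 289 higher and from 309 to 865 lower. The share of higher genes among the calls was 22.7%, against 35.2% with quantile normalization, which moved the median of all genes by 0.136, 11.65% with one total without those genes, 11.1% with the muscle covariate, 64.3% with both shares and 34.7% with the shared spread. The age changes that differed between WT and KO numbered 0 to 689 without each library in turn. Those that differed between WT and A537T numbered 0 to 109, 0 in edgeR and with one total per library, and 6 with both shares as covariates. The sign turned for Elac2 when a library was left out (from -0.028 to 0.20), for Manf (-0.053) and Creld2 (-0.27) with the muscle covariate, and for Creld2 (-0.31) and Nr1d2 (0.068) with both shares. The causes of these changes were not tested.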
